A study of Mus musculus with 2 samples.

Results

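The 10 genes described here are Atf4, Atf5, Ddit3, Trib3, Asns, Psat1, Phgdh, Mthfd2, Chac1 and Fgf21, a set that is widely used to read the ATF4 program of the integrated stress response. They were picked by symbol from a fixed list that was chosen with earlier results of these data known. The 10 symbols stood on 11 of the 19465 gene rows of the deposited counts, because Ddit3 had 2 rows with different Ensembl identifiers (ENSMUSG00000025408 and ENSMUSG00000116429). All 11 rows had at least 20 unique molecular identifiers (UMIs, counted molecules) over both sections, which was the minimum for a ratio. The second Ddit3 row is named as such throughout, and which part of the locus each row's probes read is not given in the sources used here.

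Expression was measured with the Visium CytAssist assay in formalin-fixed, paraffin-embedded mouse heart, in which gene probes hybridized to the tissue are counted by barcoded spot. A single section of 5 μm from a control α-MHC-MerCreMer+/− mouse was set against 1 of the TOP2B transgenic genotype α-MHC-MerCreMer+/− hTOP2B LSL/−. The question was how the hearts differed once human TOP2B had been switched on in cardiomyocytes. Both mice carried the tamoxifen-inducible Cre under the α-MHC promoter, which is active in cardiomyocytes, and both received 1 intraperitoneal dose of tamoxifen at 80 mg/kg, at 6 weeks of age by the study's methods. Cre activity and tamoxifen were therefore shared by both groups. In the transgenic mouse the human TOP2B cDNA sat at the Rosa26 locus behind a STOP cassette that Cre removes. The interval from tamoxifen to harvest and the sex of the mice are not given in the sources used here.

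The control section held 1256 spots over tissue and 14376300 UMIs, and the transgenic section held 924 spots and 12953389 UMIs, with medians of 11336 and 14531 UMIs per spot. Levels are CPM, the UMIs of a gene in every 1000000 UMIs of a section. Bounds in parentheses hold 95% of the counting error and nothing else, by exact Poisson limits for CPM, conditional binomial limits for ratios and Clopper–Pearson limits for shares of spots. With 1 section per genotype there was no replicate, so no test was run, no p-value was computed and no difference has a replicate check. Values in 4 quadrants around the tissue center show the spread inside a section. The share of all genes whose quadrants do not overlap between the sections is not given here, so a lack of overlap only describes a gene. A spot can hold cells of several types, and in such tissue sums fewer cells of a type and less RNA per cell cannot be told apart. Cardiomyocyte markers summed to 99177 CPM in the control and to 48458 CPM in transgenic tissue, which bears out the cardiac label of both. Fibroblast markers stood at 1867 and 4819 CPM, erythroid markers at 2146 and 20437 CPM, and macrophage markers at 321 and 631 CPM. Mouse Top2b probes gave 106 and 102 CPM, a log2 ratio of -0.07 (-0.17 to 0.04), and whether they also read the human transgene was not tested.

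In the integrated stress response, kinases that sense amino acid lack, unfolded protein, viral RNA or heme lack phosphorylate the translation factor eIF2α. General protein synthesis then slows, while mRNAs with upstream open reading frames, Atf4 and Atf5 among them, are translated more. ATF4 is therefore controlled largely at translation, which mRNA counts do not measure. The ATF4 protein pairs with C/EBP family proteins on C/EBP-ATF response elements and turns on genes of amino acid uptake and synthesis, one-carbon metabolism and, later, CHOP (Ddit3) and its targets. In heart muscle this program is known chiefly from mitochondrial disease, in which Fgf21 and the mitochondrial folate enzymes are classical readouts.

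The promoters of the set were searched for the core of that element to show where it lies in the genes that are compared below. Sequences are RefSeq promoters of build GRCm38.p6, from 250 bases before to 50 after each annotated start, and all 10 genes matched, with 12 promoter windows. The letters TGATGCAA, read on both strands (TTGCATCA on the reverse), were found in 1.03% of 27025 genes and in 2 of the set, Chac1 and Fgf21. Its forms with 1 open position, TGATGNAA and TGNTGCAA, which both include TGATGCAA, were found in 4.51% and 3.72% of genes and in 4 of the set each. The matches are printed 5′ to 3′ on the strand of the gene, with the matched letters in capitals.
Chac1, chr2:119351039-119351066, plus strand: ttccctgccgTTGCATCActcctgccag
Fgf21, chr7:45615612-45615639, minus strand: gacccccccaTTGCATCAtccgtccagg
Asns, chr6:7693215-7693242, minus strand: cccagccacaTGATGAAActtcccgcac
Psat1, chr19:15925178-15925205, minus strand: cgcgggtggcTGGTGCAAtcccctgctc
Trib3, chr2:152344076-152344103, minus strand: gggtcacagaTGGTGCAAtcccgggccg
Trib3, chr2:152344029-152344056, minus strand: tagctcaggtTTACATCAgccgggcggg
The first Trib3 match and the Psat1 match held the same 8 letters, and the second Trib3 match lay past the annotated start. These windows held no such match for Atf4, Atf5, Ddit3, Phgdh and Mthfd2. A match describes letters in a window and shows no binding.

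The set did not move as a block. Psat1 and Mthfd2 were over 2-fold higher in transgenic tissue and Chac1 was more than 2-fold lower, while Atf4, Atf5, the first Ddit3 row, Asns and Phgdh lay within 1.3-fold of the control. Counted over all 15236 genes with at least 20 UMIs, 13.7% were at least 2-fold higher and 5.61% at least 2-fold lower, against 2 of 11 rows (18.2%) and 1 of 11 rows (9.09%) in the set. The median log2 ratio of the 11 rows was 0.12, which was 0.09 below the median of all genes tested, 0.20. The shares and the median of the set were thus near those of all genes. Members past 2-fold are described singly below, and their number is not read as a trait of the set.

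**Figure D1:**
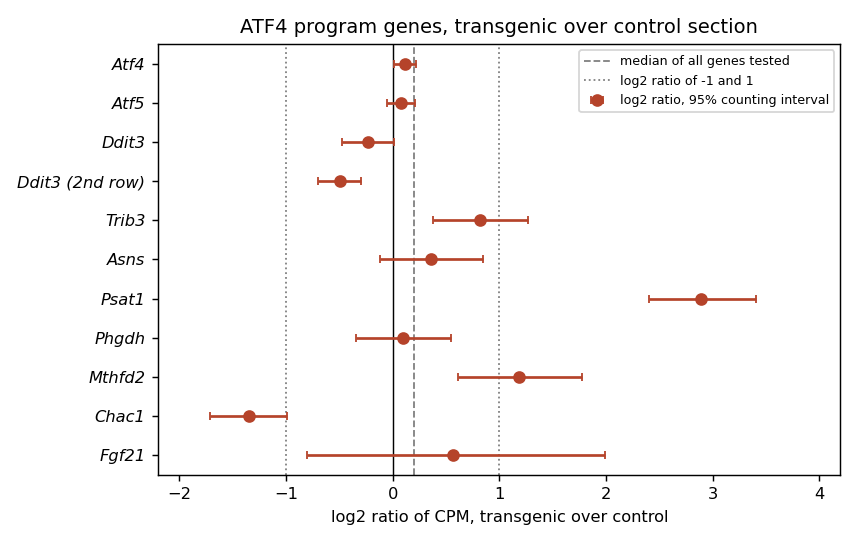
Log2 ratio of CPM, transgenic over control, for the 11 rows of the 10 genes, with bars for the 95% counting interval. The dashed line marks the median of all genes tested (0.20), the dotted lines a 2-fold difference, and only the points of Psat1 and Mthfd2 lie to the right and that of Chac1 to the left of the dotted lines.

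Atf4, the transcription factor that gives the program its name, had 1597 UMIs in the control and 1559 in the transgenic section, or 111 CPM (106 to 117) and 120 CPM (114 to 126). Control quadrants ranged from 100 to 121 CPM and transgenic quadrants from 113 to 127 CPM, so that the sections overlapped. The log2 ratio was 0.12 (0.01 to 0.22) by CPM, and it was -0.041 with edgeR's TMM factors and -0.035 under DESeq2's size factors, so its direction depended on the scaling. Its mRNA was thus at nearly the same level in both sections.

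Atf5, a related factor with a role in the mitochondrial stress response, had 989 and 940 UMIs, or 68.8 CPM (64.6 to 73.2) and 72.6 CPM (68.0 to 77.4). The log2 ratio of Atf5 was 0.08 (-0.05 to 0.21), it was -0.080 with TMM factors and -0.073 under DESeq2's size factors, and the quadrants of the sections overlapped. Transgenic quadrants spread wider, from 59.1 to 88.3 CPM, than control quadrants, from 64.4 to 77.7 CPM.

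Ddit3, which encodes CHOP, the factor tied to cell death under lasting stress, was not higher on either of its rows. The first row had 327 UMIs in the control and 251 in the transgenic section, or 22.7 CPM (20.3 to 25.3) and 19.4 CPM (17.1 to 21.9), a log2 ratio of -0.23 (-0.47 to 0.01). The second row held 511 and 326, or 35.5 CPM (32.5 to 38.8) and 25.2 CPM (22.5 to 28.1), a log2 ratio of -0.50 (-0.70 to -0.29). All 4 transgenic quadrants of the second row, at 21.5 to 30.6 CPM, lay below the control quadrants at 30.9 to 40.8 CPM, whereas those of the first row overlapped.

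Trib3, a pseudokinase that is induced by ATF4 and CHOP and restrains them, had 71 UMIs in the control and 113 in the transgenic section. Its level was 4.94 CPM (3.86 to 6.23) against 8.72 CPM (7.19 to 10.5), a log2 ratio of 0.82 (0.38 to 1.27). Transgenic quadrants ranged from 5.22 to 11.7 CPM and control quadrants from 3.61 to 6.39 CPM, so that 1 transgenic quadrant lay inside the control range. In the control section Trib3 stood at 9.43 CPM in spots at the tissue edge and 4.21 CPM in interior spots, and in interior spots alone the log2 ratio between the sections was 1.083.

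Psat1, the transaminase that makes phosphoserine in the second step of serine synthesis, differed most in the set. It had 40 UMIs in the control and 267 in the transgenic section, or 2.78 CPM (1.99 to 3.79) and 20.6 CPM (18.2 to 23.2). The transgenic level was 7.41-fold higher (5.30 to 10.6), a log2 ratio of 2.89 (2.41 to 3.41). The 4 transgenic quadrants held 16.8, 19.8, 21.7 and 24.1 CPM, and the 4 control quadrants held 1.17, 3.19, 3.05 and 3.61 CPM. Every transgenic quadrant was thus far above every control quadrant. In the 50% of each section's spots richest in cardiomyocyte markers the log2 ratio was 2.70, and in the 50% poorest in erythroid markers it was 3.43.

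Phgdh, the dehydrogenase one step ahead of PSAT1 in the same route, did not share that difference. It had 89 UMIs in the control and 86 in the transgenic section, or 6.19 CPM (4.97 to 7.62) and 6.64 CPM (5.31 to 8.20), and its log2 ratio was 0.10 (-0.34 to 0.54). The quadrants overlapped, from 4.44 to 8.33 CPM in the control and from 5.18 to 9.28 CPM in the transgenic section. The highest ratio that counting error allowed for Phgdh, 0.54, lay below the lowest for Psat1, 2.41.

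Mthfd2, the mitochondrial enzyme that oxidizes methylene-tetrahydrofolate, had 39 UMIs in the control and 80 in the transgenic section. Its level was 2.71 CPM (1.93 to 3.71) against 6.18 CPM (4.90 to 7.69), which was 2.28-fold higher (1.53 to 3.43), or a log2 ratio of 1.19 (0.62 to 1.78). The quadrants did not overlap, at 2.50 to 3.05 CPM in control and 4.79 to 7.48 CPM in transgenic tissue. With 1 CPM added to both sections the log2 ratio was 0.95, just short of 2-fold.

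Asns, which makes asparagine from aspartate and glutamine, had 69 and 80 UMIs. Its log2 ratio was 0.36 (-0.12 to 0.85), from 4.80 CPM (3.73 to 6.07) to 6.18 CPM (4.90 to 7.69). The quadrants overlapped widely, at 3.81 to 5.85 CPM in the control and 3.44 to 8.63 CPM in the transgenic section.

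Chac1, a glutathione-degrading enzyme that is induced downstream of ATF4 and CHOP, was the member that differed in the opposite direction. It had 254 UMIs in the control and 90 in the transgenic section, or 17.7 CPM (15.6 to 19.98) and 6.95 CPM (5.59 to 8.54). The transgenic level was 2.54-fold lower (1.99 to 3.27), a log2 ratio of -1.35 (-1.71 to -0.99). The 4 control quadrants held 17.0, 16.2, 19.4 and 18.1 CPM and the 4 transgenic quadrants 8.20, 7.48, 3.57 and 9.28 CPM, with no overlap. Chac1 and Fgf21 were the members with the full TGATGCAA letters printed above, and Psat1 held only a form with 1 open position.

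Fgf21, a hormone that stressed muscle and liver secrete, was close to the lowest level that could be read. It had 9 UMIs in the control and 12 in the transgenic section, or 0.626 CPM (0.286 to 1.19) and 0.926 CPM (0.479 to 1.62), a log2 ratio of 0.57 (-0.81 to 1.99). A count of 3, taken as the floor, equals 0.209 and 0.232 CPM. Adipoq, a gene of fat cells, gave 8 and 7 UMIs in the same sections and Myh4, a gene of fast skeletal muscle, 3 and 2. A difference in Fgf21 was not detectable at this depth.

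**Figure D2:**
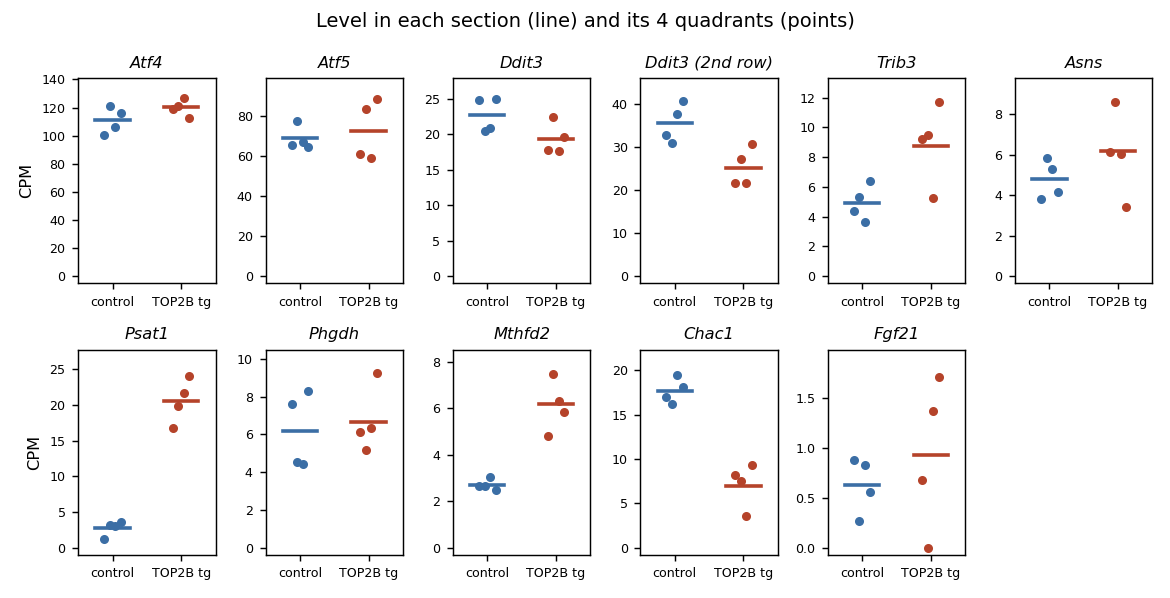
CPM of each row in the control and the TOP2B transgenic (tg) section, with a line for the whole section and points for its 4 quadrants, which are parts of 1 section and not replicates. Psat1 and Mthfd2 are higher in every transgenic quadrant, Chac1 and the second Ddit3 row are lower in every transgenic quadrant, and the other rows overlap. The share of all genes without overlap is not given here.

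The shares of spots with at least 1 UMI followed the same pattern. Psat1 was seen in 3.11% (2.22% to 4.22%) of control spots and 25% (22.2% to 27.9%) of transgenic spots. Chac1 was seen in 18.5% (16.4% to 20.7%) and 9.20% (7.41% to 11.2%), although transgenic spots were deeper. Mthfd2 was seen in 2.95% and 8.23% of spots, Trib3 in 5.49% and 11.04%, Asns in 5.49% and 8.33%, and Phgdh in 6.77% and 9.09%. Atf4 was the most widespread member, in 69.3% of control and 78.2% of transgenic spots.

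Depth was then made equal by thinning every spot to 8134 UMIs, with 140 control and 78 transgenic spots too shallow to be kept. Psat1 was then seen in 2.06% and 16.8% of spots, Mthfd2 in 2.06% and 5.20%, Trib3 in 3.23% and 6.86% and Chac1 in 13.4% and 5.08%. Asns came to 3.23% and 4.02%, and Phgdh to 5.02% and 6.03%. Thinned Atf4 shares were 57.5% (54.6% to 60.4%) and 63.0% (59.6% to 66.3%), still higher in the transgenic section. Thinned Atf5 shares were 41.2% and 42.4%, against 52.1% and 57.7% before. In all, 8 of 11 rows had a higher share in the transgenic section both before and after thinning, and the lower ones were Chac1 and both rows of Ddit3. Over all genes tested the share of spots was higher in the transgenic section for 76.4% before and 63.2% after thinning, so the count of 8 is near that of genes at large. As a level to read these against, Adipoq was seen in 0.637% of control and 0.758% of transgenic spots, and Fgf21, at 0.717% and 1.30%, was near it.

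The spatial pattern in the transgenic section differed between members. Moran's I, the deposited score of how alike neighboring spots are, was 0.0868 for Atf5 and 0.0708 for Atf4, above the median of 0.0354 over 7590 genes with at least 200 UMIs there. It was 0.0247 for Psat1, 0.0235 and 0.0187 for the rows of Ddit3, 0.0138 for Chac1 and 0.0166 for Trib3, all below that median. In the control section Atf4 had -0.000718 and Atf5 0.0127, where the median over 7221 genes was 0.0042. The score depends on counts per spot, and Psat1 reached at most 3 UMIs and Chac1 at most 2 in any transgenic spot, and such sparse counts limit what it can show.

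**Figure D3:**
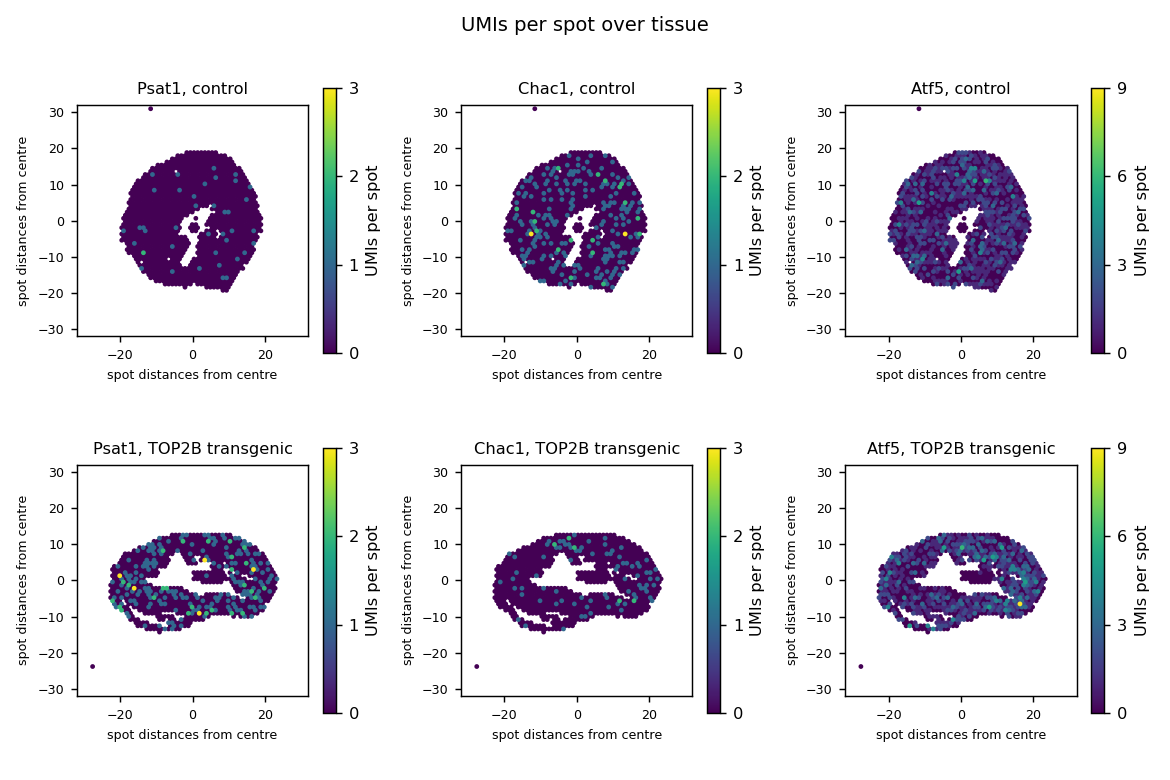
UMIs per spot of Psat1, Chac1 and Atf5 over the tissue of both sections, on 1 color scale per gene, with positions in spot distances from the tissue center. Psat1 spots are scattered through the whole transgenic wall and rare in the control. Chac1 spots are fewer in the transgenic section (9.20% of spots) than in the control (18.5%). Atf5 is seen across both sections with more UMIs toward one side of the transgenic section.

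To describe the pattern, transgenic spots were ranked by the share of their UMIs from Nppa, the natriuretic peptide gene that strained ventricular muscle turns on. The 307 highest spots were set against the 307 lowest. Nppa was also uneven in the control section, with up to 162 UMIs in a spot and a Moran's I of 0.43. Which part of the heart the Nppa-high spots lie in was not tested. Nppa itself stood at 274 CPM in control and 20249 CPM in transgenic tissue. Chac1 had 51 UMIs in the Nppa-high and 15 in the Nppa-low spots, or 10.99 and 3.86 CPM, a log2 ratio of 1.51 (0.65 to 2.45). Atf5 was at 86.8 and 54.4 CPM, a log2 ratio of 0.68 (0.43 to 0.92), and the first Ddit3 row at 21.1 and 13.4 CPM, 0.66 (0.16 to 1.17). Psat1 ran the other way, at 17.4 CPM in Nppa-high and 25.8 CPM in Nppa-low spots, a log2 ratio of -0.56 (-1.003 to -0.12). Atf4 was level, at -0.05 (-0.23 to 0.13), and the median over all 7590 genes was 0.09. Even in Nppa-high spots Chac1 was below the 17.7 CPM of the control section, and even there Psat1 was above its control level of 2.78 CPM. Across control spots ranked by Nppa share, with 418 spots at each end, Chac1 had a log2 ratio of -0.27 (-0.72 to 0.19) and Psat1 of 0.15 (-0.98 to 1.29). Only 627 of 1256 control spots held an Nppa UMI. All 418 control spots at the low end were thus tied at 0 and taken in file order, so this ranking is not comparable to the transgenic ranking.

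Of the cell type rankings, those by fibroblast and cardiomyocyte markers gave intervals without 0 for Atf5, Ddit3, Trib3 and Chac1. In both rankings the intervals of Atf4 and Psat1 included 0. With the fibroblast marker share, the ratio of the upper over the lower 307 spots was 0.79 (0.54 to 1.04) for Atf5, 0.77 (0.28 to 1.28) and 0.73 (0.30 to 1.18) for the rows of Ddit3, 1.01 (0.31 to 1.75) for Trib3 and 0.94 (0.13 to 1.81) for Chac1. The median of all genes in that ranking was 0.19, which lay inside the interval of Chac1. Psat1 was at -0.24 (-0.70 to 0.23) and Atf4 at 0.06 (-0.12 to 0.23).

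With the cardiomyocyte marker share the same members ran the other way. Of the 9 markers, 6 were themselves at least 2-fold lower in the transgenic section, against 5.61% of all genes. A low share is thus not read as fewer cardiomyocytes, which was not tested. Chac1 was at -1.46 (-2.33 to -0.65), with 48 UMIs in the spots lowest and 18 in the spots highest in this share. Atf5 was at -0.86 (-1.12 to -0.61), the rows of Ddit3 at -0.50 (-0.96 to -0.04) and -0.83 (-1.26 to -0.41), and Trib3 at -0.85 (-1.65 to -0.07), against a median of -0.09. That median lay inside the intervals of the first Ddit3 row and Trib3. Psat1 was at 0.23 (-0.22 to 0.69) and Atf4 at 0.04 (-0.14 to 0.22). In the control section Atf5 also leaned to spots low in cardiomyocyte marker share, by -0.28 (-0.50 to -0.06), whereas Chac1 did not, at 0.09 (-0.37 to 0.56).

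The erythroid share, which differed strongly between the sections and from 7192 to 46051 CPM between transgenic quadrants, gave -0.12 (-0.56 to 0.32) for Psat1 and -0.59 (-1.43 to 0.21) for Chac1, so that neither interval left out 0. With the mural cell share Psat1 was at -0.56 (-1.04 to -0.09). By the skeletal muscle marker share Atf5 was at -0.69 (-0.93 to -0.46) and the second Ddit3 row at -0.67 (-1.08 to -0.26). Trib3 was at -0.24 (-0.91 to 0.44) and Chac1 at -0.41 (-1.14 to 0.31) there. Only 6 of the 10 skeletal muscle markers had at least 20 UMIs over both sections. Of these, 4 were above 0 between the sections, although the list sum was lower in the transgenic section (4985 and 3332 CPM). The sum thus did not follow most of its genes, and which cells this share reads was not tested. With the endothelial share Mthfd2 was at -1.003 (-1.94 to -0.12), on 33 and 17 UMIs, Atf5 at -0.35 (-0.58 to -0.11) and Chac1 at -0.34 (-1.13 to 0.44). With the macrophage share Chac1 was level, at 0.0043 (-0.82 to 0.84), while Atf5 was at 0.26 (0.03 to 0.49) and the second Ddit3 row at 0.54 (0.12 to 0.96). The median of all genes in the macrophage ranking was 0.12. It lay inside the interval of Atf5 and at the lower bound of that of the second Ddit3 row. Ranking by Myh7 as a share of Myh6 and Myh7 together, a sign of the shift to fetal myosin, gave 0.33 (0.10 to 0.56) for Atf5, 0.50 (0.04 to 0.96) for the first Ddit3 row and 0.18 (-0.25 to 0.62) for Psat1. Chac1 was at 0.21 (-0.50 to 0.93) and Trib3 at -0.18 (-0.88 to 0.51) in that ranking. The median of all genes there was 0.05, which lay inside the interval of the first Ddit3 row and below that of Atf5. Over the 11 rankings of the transgenic section, 26 of 121 intervals left out 0, against 4 of 110 over the 10 rankings of the control section. These include the ranking by UMIs per spot, with transgenic Asns at -0.81 (-1.61 to -0.002) and Mthfd2 at -0.85 (-1.69 to -0.004). The same count over all genes is not given here, and the median Moran's I of genes at large was 0.0354 in the transgenic and 0.0042 in the control section. The contrast is therefore not read as a trait of the set, and each count describes its section.

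**Figure D4:**
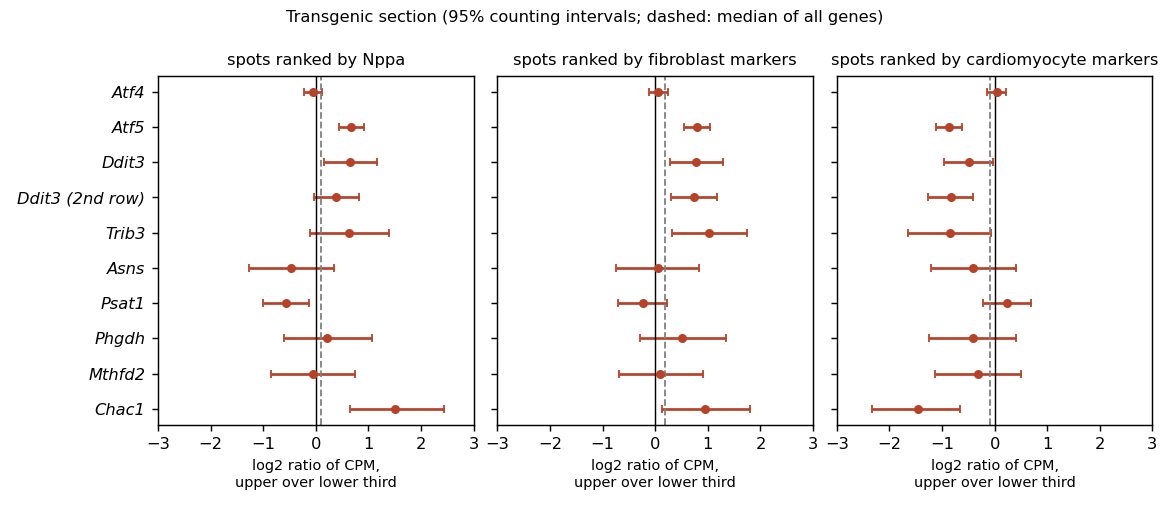
Log2 ratio of CPM in the transgenic section between the 307 spots highest and the 307 spots lowest in Nppa share, fibroblast marker share or cardiomyocyte marker share, with 95% counting intervals and a dashed line for the median of all genes. Atf5, Ddit3, Trib3 and Chac1 lie to the right for fibroblast markers and to the left for cardiomyocyte markers, and Atf4 and Psat1 lie near 0 in both (Fgf21 has too few UMIs and is left out).

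Spot by spot, Atf4 and Atf5 stood at about the same level with and without Psat1. The 231 transgenic spots with a Psat1 UMI had a median of 14875 UMIs, and the 692 without had 14390. Atf4 stood at 119 CPM in the former and 121 CPM in the latter, and Atf5 at 73.6 and 72.2 CPM. Mthfd2 stood at 8.51 and 5.34 CPM, a log2 ratio of 0.67 (-0.04 to 1.36), and 27 spots held UMIs of both Psat1 and Mthfd2. Over all 110 ordered pairs of members, 6 intervals left out 0. With so many intervals, some can leave out 0 by counting error alone, and the count for other gene pairs is not given here. The 6 are therefore listed as a description and not read as links between members. Spots with Atf4 held more Atf5 (0.45, 0.18 to 0.74) and less Phgdh (-0.83, -1.54 to -0.07). In the reverse order, Atf4 was at 0.01 (-0.13 to 0.16) in spots with Atf5 and at -0.18 (-0.45 to 0.07) in spots with Phgdh. Spots with Atf4 had a median of 14947 UMIs, and the 200 without had 11675.5. Spots with Trib3 held less Phgdh (-1.53, -3.44 to -0.12), with 4 spots that held both, and the reverse was -1.25 (-2.90 to 0.01). For Atf5 and the first Ddit3 row the values were 0.47 (0.08 to 0.88) for Ddit3 in spots with Atf5 and 0.30 (0.09 to 0.51) for Atf5 in spots with Ddit3. Both orders draw on the same spots. In spots with Mthfd2 the first Ddit3 row was at 0.73 (0.16 to 1.27), and the reverse, Mthfd2 in spots with Ddit3, was at 0.60 (-0.13 to 1.30). The counts are sparse and no correlation is drawn from them.

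For members with at least 200 UMIs in the transgenic section, the genes with the most similar pattern were sought over 24 tissue blocks, by Spearman correlation among 7590 genes. The blocks share 1 section and its depth, and the best of so many genes will be high, so the values are a description. Atf5 was closest to Comp (0.89), Rsrp1 (0.87), Htra3, Dkk3 and Ephx1 (each 0.84). Comp and Prelp, both matrix protein genes, were also among the 5 closest to the first Ddit3 row, at 0.79 and 0.78, beside Lgals3 (0.83), Pik3ip1 (0.79) and Dusp4 (0.78). Among the genes closest to Psat1 were Slc25a42 (0.69), a mitochondrial carrier gene, Il10rb (0.68), C1qtnf4 (0.64) and Phyhd1 (0.62).

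Atf4 was closest to Naa38 (0.78), Rgmb (0.71), Oxsm (0.69), Sac3d1 and Dnmt3a (each 0.64). The second Ddit3 row was closest to Csf2ra (0.78), Nsmce4a (0.77), Arsa, Cdk13 and Rbm22 (each 0.76). Between members, Atf5 and the first Ddit3 row had a correlation of 0.71 and the rows of Ddit3 one of 0.61, while Atf4 had -0.18 with Atf5 and 0.05 with Psat1.

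Other genes of the pathway were read from 7 lists that do not hold the 10 genes. The lists were chosen with earlier results of these data known, so their shares and medians describe the lists and test nothing. Over all genes tested, 13.7% were at least 2-fold higher, 5.61% at least 2-fold lower and 63.2% above 0, with a median log2 ratio of 0.20. Among the 7 lists, amino acid transporters had the highest median log2 ratio, 1.32, with 6 of 8 genes (75%) at least 2-fold higher. Slc1a4, which carries alanine, serine and cysteine, was counted 18 times in the control and 113 times in the transgenic section, and its log2 ratio was 2.80 (2.08 to 3.61). Slc7a5, the large neutral amino acid transporter, had 100 and 468 UMIs and stood at 2.38 (2.06 to 2.70), and its partner chain Slc3a2 was at 0.83. The glutamine carriers Slc1a5 and Slc38a2 were at 1.52 and 1.16. The arginine transporter Slc7a1 was at -0.33, and Slc7a3 and Slc7a11 had under 20 UMIs.

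The list of stress regulators and other ATF4 targets held both of the extremes. In it 5 of 14 genes (35.7%) were at least 2-fold higher and 2 of 14 (14.3%) at least 2-fold lower, against 13.7% and 5.61% of all genes. The list median was 0.64. Gdf15, a circulating stress hormone that is a target of ATF4 and CHOP and also of p53, was at 3.70 (3.33 to 4.09) on 63 and 737 UMIs. Ddit4, an inhibitor of mTORC1 signaling, had 613 and 4792 UMIs and a log2 ratio of 3.12 (2.995 to 3.24), and Atf3, an early stress factor, had 115 and 619 UMIs and one of 2.58 (2.29 to 2.88). The lowest were Cebpb at -0.31, the alanine transaminase gene Gpt2 at -1.48 and the lipoprotein receptor gene Vldlr at -1.60.

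Enzymes near PSAT1 and MTHFD2 in serine, glycine and folate metabolism were mixed, with 2 of 13 (15.4%) at least 2-fold higher and 1 of 13 (7.69%) at least 2-fold lower. Both shares were near those of all genes, 13.7% and 5.61%. The median of these enzymes was 0.29, against 0.20 for all genes. Aldh1l2, the mitochondrial 10-formyl-tetrahydrofolate dehydrogenase, was highest at 1.38 (0.91 to 1.85), followed by Sardh at 1.05 and Gldc at 0.91 (-0.14 to 2.02, on 13 and 22 UMIs). Shmt2 was at -0.38, Mthfd1 at -0.54 and Cth, on 28 and 9 UMIs, at -1.49. Of the 20 cytosolic tRNA synthetases, some of them known ATF4 targets, none was 2-fold higher or lower, against 13.7% and 5.61% of all genes. Their median was 0.27, from Gars at 0.68, Nars at 0.51 and Eprs at 0.49 to Mars at -0.12, Dars at -0.19 and Farsb at -0.53.

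Upstream of ATF4, no gene of the 17 eIF2 kinases, eIF2 and eIF2B subunits and their regulators was 2-fold higher, against 13.7% of all genes. The list median was 0.27, against 0.20 for all genes. The highest were the kinases Eif2ak3 (PERK) at 0.95 and Eif2ak2 (PKR) at 0.83, and Ppp1r15a (GADD34), the phosphatase subunit that ends the response, at 0.81. The lowest were Eif2b1 at -0.31, the mitochondrial protease gene Oma1 at -0.38 and Dele1 at -1.29 (-1.38 to -1.20). DELE1 relays mitochondrial stress to the kinase HRI after OMA1 cleaves it.

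The ATF6 and XBP1 arms of the unfolded protein response held none of 18 genes past 2-fold. Of all genes, 13.7% were at least 2-fold higher and 5.61% at least 2-fold lower. The median of these arms was 0.18, against 0.20 for all genes. Edem1 was at 0.98, Atf6 at 0.64 and Dnajc3 at 0.54, while Herpud1 was at -0.58, the chaperone gene Hspa5 (BiP) at -0.63 and Sdf2l1 at -0.65. Mitochondrial chaperones and proteases lay lower, with none of 10 above 0, against 63.2% of all genes. Their median was -0.43, and 2 of 10 (20%) were at least 2-fold lower, against 5.61% of all genes. The chaperonin genes Hspd1 and Hspe1 were at -1.49 and -1.05 and the protease gene Clpp at -0.77, while Spg7, Yme1l1 and Lonp1 were at -0.03, -0.10 and -0.12. The cardiomyocyte marker sum was also lower in the transgenic section, as given above, and its part in these values was not tested.

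**Figure D5:**
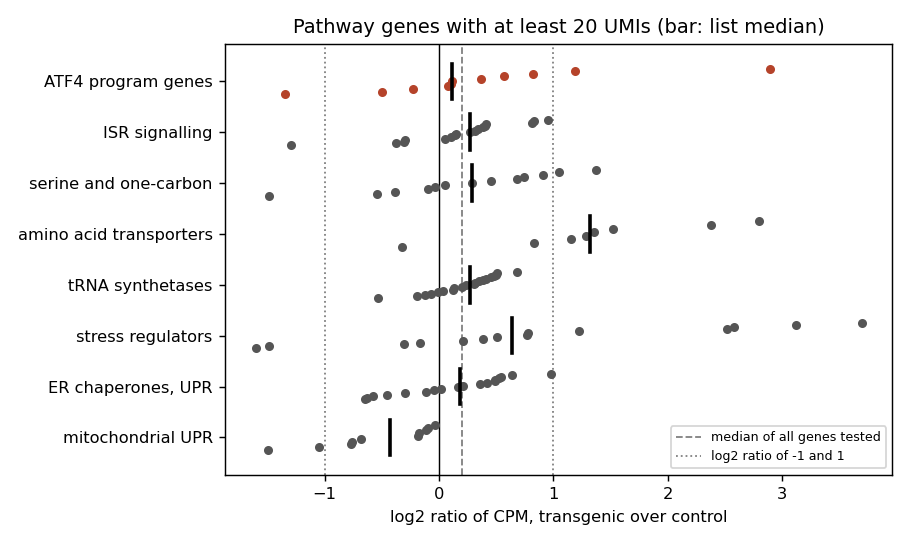
Log2 ratios of CPM, transgenic over control, for the genes of the set (11 rows, red) and of the 7 pathway lists with at least 20 UMIs, with a bar for each list's median. The transporter median lies at 1.32, past the dotted 2-fold line, and no mitochondrial chaperone or protease lies above 0.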

How the data were processed

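Per the file headers, Space Ranger 2.0.0 turned the reads into counts. The labels also name bcl2fastq and the builds GRCm39 and mm39, and the probe set is not given in the sources used here. The deposited values are unnormalized UMI counts of each gene in each spot over tissue and Moran's I per gene and section, a score used as given. Sums of the counts matched the deposited sums for every gene. The deposited p and q values of Moran's I and the section images were not used.

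UMIs were summed per section and divided by 14376300 (control) or 12953389 (transgenic) to give CPM. Intervals cover counting error only and are at the 95% level, and those of the ratios were run on simulated Poisson counts. Such counts hold no spread between spots or animals, so that run checks only the calculation. Nothing here has a test across animals. Edge spots have fewer than 6 neighbors over tissue, and blocks were 12 angular sectors of equal spot number, each split at its median distance from the center. The 2 sections shared 725 spot barcodes, which mark array positions and not cells.

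The 10 genes and all lists were chosen with earlier results of these data known. Named were the 10 genes, the 3 highest and 3 lowest genes of each of 7 pathway lists, the 5 genes closest to each member with at least 200 UMIs, and Nppa, Myh7 and Top2b. A gene that this rule names is not reported here. Adipoq and Myh4 were added as genes of other tissues. Pdia6, Actc1, Hba-a1 and Ahsp were not analysed here, and Mars1 and Ero1a were found under older symbols. Of the 8 cell type marker lists, endothelial sums were 1994 and 2019 CPM (control, transgenic), mural 4264 and 9909, skeletal muscle 4985 and 3332, and adipocyte 36.1 and 37.3. Only 6 of 10 skeletal muscle and 2 of 8 adipocyte markers had at least 20 UMIs over both sections.

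Alternatives were TMM factors (edgeR 4.0.16), size factors (DESeq2 1.42.0), totals without the 50 most abundant genes, interior spots, spots with at least 1000 UMIs, the 50% of spots richest in cardiomyocyte or poorest in erythroid markers, each transgenic quadrant left out, averages over spots after scaling each to 10000 UMIs, 1 CPM added, and list genes with at least 1 or 200 UMIs. Python 3.11.15, numpy 2.4.6, scipy 1.17.1, pandas 2.3.3 and R 4.3.3 were used.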

Additional observations from a re-analysis of the deposited data

How the results depend on the processing

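The ratios of Psat1 (2.51 to 3.43), Mthfd2 (0.95 to 1.72) and Chac1 (-2.28 to -1.004) kept their direction under all 13 alternatives. Chac1 was lowest in the spots richest in cardiomyocyte markers and nearest to 0 in erythroid-poor spots. The median of the 11 rows, 0.12, came to -0.041 with TMM and -0.035 with DESeq2 scaling, which lowered every log2 ratio by 0.16 and 0.15, and to 0.28 in interior spots. The number of rows at least 2-fold higher, 2, was 1 with 1 CPM added (without Mthfd2) and 3 in interior spots, in erythroid-poor spots and without the third transgenic quadrant (with Trib3, at 1.083, 1.41 and 1.03), and without the second (with Fgf21, at 1.02). The number at least 2-fold lower was 1 throughout. Among serine and folate enzymes the number at least 2-fold higher was 1 with TMM, 1 with DESeq2 scaling, 1 among genes with at least 200 UMIs, where the number lower was 0, and 3 among genes with at least 1 UMI. The scaling moves follow from a shift that is the same for every gene. Adding 1 CPM shrinks ratios of low-count genes, and the UMI minimum changes which genes are counted. The cause of the moves across subsets of spots was not tested. Atf4, Atf5 and Phgdh crossed 0 under some alternatives. No paired analysis was possible because each genotype had 1 section. Depth limits Fgf21, Asns and Phgdh, whose intervals include 0.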
